A study of Mus musculus with 2 samples.

Results

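The cartilage matrix genes outside the collagens described here are *Acan*, *Hapln1*, *Matn1*, *Matn3*, *Comp*, *Chad* and *Cytl1*, which are 7 of the 21244 named genes with a probe on the array. They were found by the gene name that the array design gives to each spot other than the controls, and each of the 7 has 1 probe with 1 spot per array. RNA came from incisors of wild-type mice and of mice lacking *Sox21*, a transcription factor gene of the Sox family, and was hybridized to 1-colour Agilent arrays with 1 array for each genotype. The wild-type strain is C57BL/6J according to the methods, whereas the strain of the *Sox21* KO mice, the number of animals behind each RNA and the upper or lower jaw are not given in the sources used here. The labels give postnatal day 0 and the methods give the day after. With 1 array per genotype there was no replicate to test against, so all differences are between these 2 arrays, and a genotype effect and a difference between single dissections cannot be told apart.

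Cartilage is a hydrated matrix in which a network of collagen fibrils holds large aggregates of proteoglycan. Aggrecan, the product of *Acan*, carries chondroitin sulfate chains and binds hyaluronan, and the link protein encoded by *Hapln1* locks that bond. The matrilins encoded by *Matn1* and *Matn3* and the thrombospondin family protein encoded by *Comp* connect collagen fibrils with other matrix molecules. Chondroadherin, the product of *Chad*, is a leucine-rich repeat protein that binds collagen and integrins, and *Cytl1* encodes a small secreted protein of chondrocytes. In the jaw, Meckel's cartilage lies close to the developing lower incisor, and *Comp* is also made in tendon and ligament.

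The probes that read these genes are shown by their first 30 bases, 5′ to 3′, because every value below rests on 1 such oligonucleotide per gene. All bases are in lower case, since no part of a probe is singled out. The coordinates are those that the deposited files give for mm9, and the placement in exons or untranslated regions was not determined here.
Acan (chr7:86259741-86259801): acaggctggctgaagagaagcagagccctc
Hapln1 (chr13:89751096-89751155): aacttgacaaatacaccatgcattcttctg
Comp (chr8:72905692-72905825): ctgcgctaccgttgcaatgatacaatccct
Chad (chr11:94430136-94430195): ctcctttgagagaagctattgtagaacctc
Matn1 (chr4:130511217-130511276): tgtgtgagcgactgcgttcgttatttttcc
Matn3 (chr12:8977503-8977562): taaacagtgtgaggggtttctggagaacca
Cytl1 (chr5:38130789-38130848): ggagagcaagcaccttaggaacagcaaaat

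Each probe is 60 bases long. The span given for the *Comp* probe is 134 bases, 74 more than the probe itself. The span of the *Acan* probe is 61 bases, and those of the other probes equal the probe length.

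A signal was taken as the processed signal of the spot, from which the scanner software had removed background, divided by the 75th percentile of all 62976 spots of its array. That percentile was 268 in wild-type and 276 in *Sox21* KO. The software marked 49.7% of non-control spots in wild-type and 50.4% in *Sox21* KO as well above background, and it marked 0 spots as saturated. Errors given with a signal are those that the software estimated for the single spot, and the error of a ratio combines those of both spots. They hold no difference between animals. *Sox21* itself gave log2 ratios, here always *Sox21* KO minus wild-type, of -1.09 at its brighter and -1.51 at its dimmer probe. The normalized signal was 5.09 in wild-type and still 2.39 in *Sox21* KO at the brighter probe, and 1.07 and 0.375 at the dimmer one, and whether these probes lie in the deleted part was not determined here. Tooth RNA was present on both arrays, since the ameloblast genes *Amelx*, *Ambn*, *Enam* and *Mmp20* and the odontoblast genes *Dspp* and *Dmp1* were all well above background.

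Of the 7 cartilage matrix genes, 4 were well above background on both arrays, namely *Acan*, *Hapln1*, *Comp* and *Chad*, and these are called measured. *Matn1*, *Matn3* and *Cytl1* were well above background on neither array. All 4 measured genes had the higher signal in *Sox21* KO incisor, where 52.4% of all 13796 measured genes did, although *Chad* did so by less than its error. The signal was at least 1.5-fold higher for 2 of them, *Comp* and *Hapln1*, against 3.20% of all measured genes, and 0 of the 4 were 2-fold apart, against 1.41% in either direction. Under normexp, a model-based background correction that here adds a constant of 50 to all signals, 0 of the 4 were 1.5-fold higher, with *Comp* at 0.58 and *Hapln1* at 0.52 on the log2 scale, and 172 of all measured genes were. Around a median of 0.51, the log2 ratios of the 4 genes reached from 0.10 to 0.89, whereas all measured genes had a median of 0.01. In bulk tissue, a different number of chondrocytes and a different amount of RNA in each of them cannot be told apart.

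**Figure D1:**
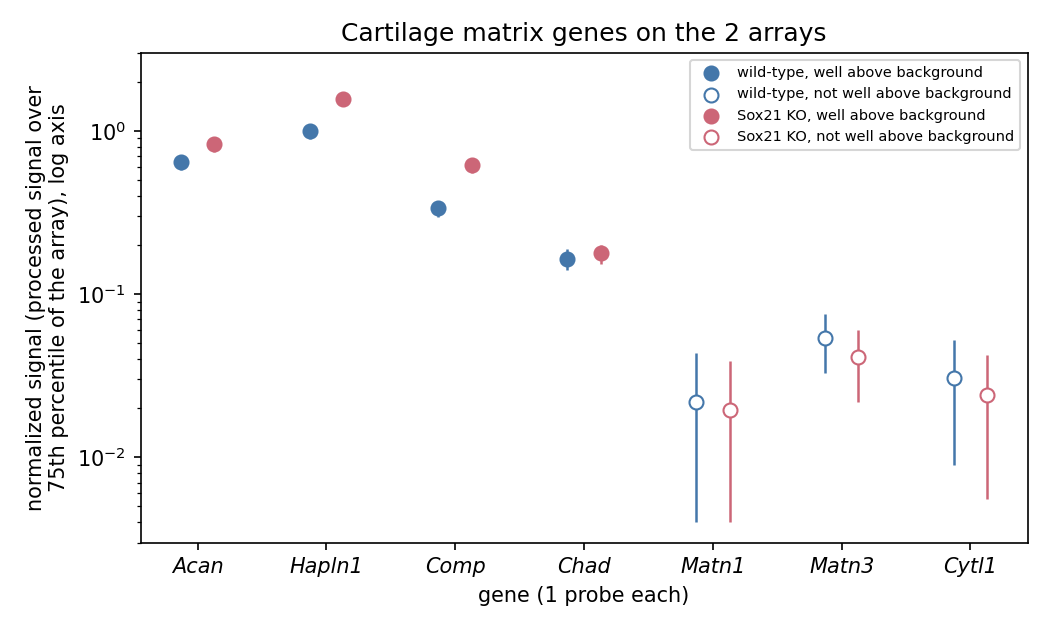
Normalized signal of each of the 7 genes on the wild-type array (blue) and the *Sox21* KO array (red), on a log axis, with the software's error as bars, the lower bar of *Matn1* cut short because its error exceeds its signal. Filled points are well above background, open points are not. *Comp*, *Hapln1* and *Acan* were brighter on the KO array, *Chad* nearly equal, and the open points of *Matn1*, *Matn3* and *Cytl1* have error bars that overlap between the arrays.

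Aggrecan and its link protein form the aggregates that give cartilage its stiffness under pressure. The processed signal of *Hapln1* was 266 ± 27.1 (error from the software) in wild-type and 434 ± 43.6 in *Sox21* KO incisor. After normalization its signals were 0.994 and 1.57, so that the KO array was 1.58-fold higher, a log2 ratio of 0.66 with a combined error of 0.21. The spot's raw mean brightness was 11.6 times its local background in wild-type and 19.6 times in *Sox21* KO. *Hapln1* ranked number 314 from the top among the log2 ratios of the 13796 measured genes.

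For *Acan*, the processed signals were 173 ± 18.2 in wild-type and 229 ± 23.4 in *Sox21* KO incisor. Its normalized signals of 0.647 and 0.831 gave a 1.29-fold higher level in *Sox21* KO incisor and a log2 ratio of 0.36, with a combined error of 0.21. Both genes of the aggregate thus had the brighter spot on the KO array, *Hapln1* by about 3 times its combined error and *Acan* by less than 2 times. A log2 ratio above that of *Acan* was found for 8.68% of all measured genes.

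*Comp* had the largest ratio of the 4 measured cartilage matrix genes. The spot gave 89.6 ± 10.5 in wild-type and 171 ± 17.7 in *Sox21* KO before normalization, and the normalized signals were 0.335 and 0.619. This was a 1.85-fold higher level, with a log2 ratio of 0.89 and a combined error of 0.23, number 141 from the top of all measured genes. On the wild-type array 1 of the 308 negative-control spots was as bright as the *Comp* spot, and on the KO array 0 were.

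*Chad*, the leucine-rich partner of collagen, gave 44.2 ± 6.50 in wild-type and 48.9 ± 6.58 in *Sox21* KO before normalization. The normalized signals were 0.165 and 0.177, which gave a log2 ratio of 0.10 with a combined error of 0.29. The *Chad* spots therefore did not differ beyond their error, the largest combined error of the 4 measured genes.

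The matrilins and *Cytl1* gave no ratio. The processed signal of *Matn1*, which is abundant in mature cartilage, was 5.85 ± 5.86 in wild-type and 5.36 ± 5.37 in *Sox21* KO. *Matn1* also failed, in both genotypes, the weaker mark of the software, which asks only whether a spot is positive and significantly above background. *Matn3* had 14.4 ± 5.66 and 11.3 ± 5.29, and *Cytl1* had 8.19 ± 5.77 and 6.63 ± 5.09. These last genes passed the weaker mark in both genotypes. For scale, 5 of the 308 negative-control spots reached the *Matn3* signal in wild-type and 2 in *Sox21* KO, and for *Cytl1* these numbers were 10 and 5. Signals marked well above background started at 21.3 in wild-type and 19.5 in *Sox21* KO, so a *Matn3* difference between genotypes was not detectable at this signal.

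**Figure D2:**
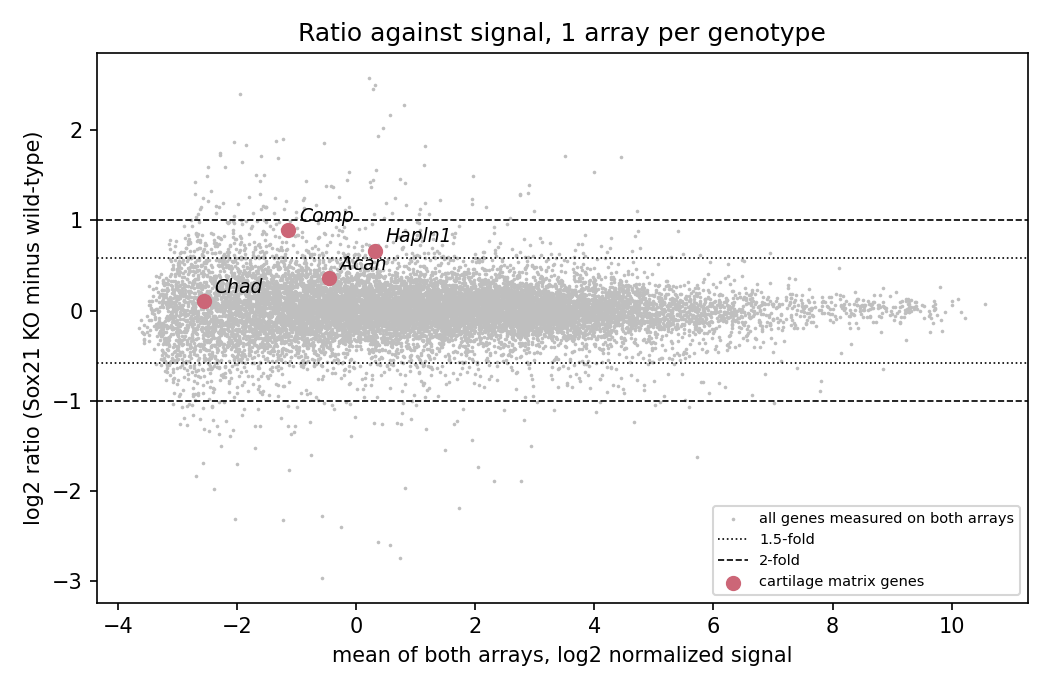
The log2 ratio (*Sox21* KO minus wild-type) of each gene measured on both arrays against its mean log2 normalized signal, with the 4 measured cartilage matrix genes in red and lines at 1.5-fold and 2-fold. *Comp* at 0.89 and *Hapln1* at 0.66 lie above the 1.5-fold line, *Acan* at 0.36 and *Chad* at 0.10 below it.

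The precision of a single spot can be read from probes that the array repeats. Among 86 repeated probes whose mean signal lay within the range of the 4 measured genes, spots of the same probe scattered in their log2 ratio with an SD of 0.15 (median over probes) and at most 0.38. The ratios of *Comp* and *Hapln1* exceed the highest of these SDs, that of *Acan* lies between the median and the highest, and that of *Chad* is below the median. The arrays hold 1 spot for each cartilage matrix gene, so none of these ratios could be averaged over spots.

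Aggrecan and the link proteins belong to gene families whose members lie side by side on the chromosome. By the order of RefSeq genes on GRCm38.p6, 0 other protein-coding genes lie between *Acan* and *Hapln3*, between *Vcan* and *Hapln1*, between *Bcan* and *Hapln2* or between *Ncan* and *Hapln4*. *Hapln3*, next to *Acan*, had normalized signals of 1.09 on both arrays and a log2 ratio of 0.00. *Vcan*, which encodes the versican of loose connective tissue and lies next to *Hapln1*, had a log2 ratio of 0.20, and its other measured probe had 0.21. *Bcan*, encoding the brain proteoglycan brevican, had -0.62, with dim signals of 0.161 and 0.105. *Ncan*, *Hapln2* and *Hapln4* were well above background on neither array. The ratio of *Hapln1*, 0.66 and under normexp 0.52, and the 0.20 of its neighbour *Vcan* have no replicate check.

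*Matn2* and *Matn4*, the matrilins found outside cartilage as well, were measured on both arrays, unlike *Matn1* and *Matn3*. *Matn2* had a log2 ratio of 0.04, and *Matn4* had -0.14 and -0.27 at its probes. Among the thrombospondins related to *Comp*, *Thbs1* had 0.22, *Thbs2* had 0.38, *Thbs3* had 0.05 and *Thbs4*, a protein of tendon and muscle, had 0.33. *Chadl*, the relative of *Chad*, had -0.03, and this sign turned under the median shift, in which each array is scaled by its median in place of the 75th percentile. Of the 13 relatives, 10 were measured, with 7 higher, among them *Hapln3* by 0.00, and 3 lower, and 0 of these were at least 1.5-fold higher and 1, *Bcan*, was at least 1.5-fold lower, though not under the median shift, quantile normalization or normexp. Their median log2 ratio was 0.05.

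The cartilage collagens, which form the fibrils that these proteins bind, were all 8 measured. *Col2a1*, the main fibril collagen of cartilage, was 1.67-fold higher in *Sox21* KO incisor, a log2 ratio of 0.74, and its fibril partners *Col11a1* and *Col11a2* had 0.50 and 0.48. In contrast, the genes of collagen IX, which coats these fibrils, had -0.03 for *Col9a1*, -0.04 for *Col9a2* and -0.44 for *Col9a3*. *Col10a1* of hypertrophic cartilage had 0.33 and *Col27a1* had -0.32. The median of the 8 collagens was 0.15, with 4 higher and 4 lower. Under the median shift, *Col9a1* and *Col9a2* turned positive and 6 were higher, while the share of higher genes among all measured genes went from 52.4% to 65.5%.

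Among 10 other genes of cartilage proteins, 4 were measured, and 6 that include the chondrocyte genes *Cnmd*, *Ucma*, *Epyc* and *Clec3a* were well above background on neither array. *Scrg1*, expressed in differentiating chondrocytes, went from 0.121 to 0.205, a log2 ratio of 0.77 that became 0.31 under normexp. *Snorc*, a transmembrane proteoglycan of chondrocytes, had 0.32, which became 0.05 under normexp, *Mia* had 0.17, which became 0.08, and *Cilp2* had -0.03, which became positive under the median shift and quantile normalization. Over the 25 genes of the 3 cartilage lists, 16 were measured, and 11 of these were higher and 5 lower, around a median log2 ratio of 0.32, where 52.4% of all measured genes were higher. The split was 14 and 2 under the median shift, 13 and 3 under quantile normalization and 10 and 6 under normexp, and the shares of all measured genes that were higher were then 65.5%, 52.1% and 49.8%. Cartilage genes were thus partly detected, with *Matn1*, *Cnmd* and *Ucma*, which are typical of chondrocytes, not well above background.

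**Figure D3:**
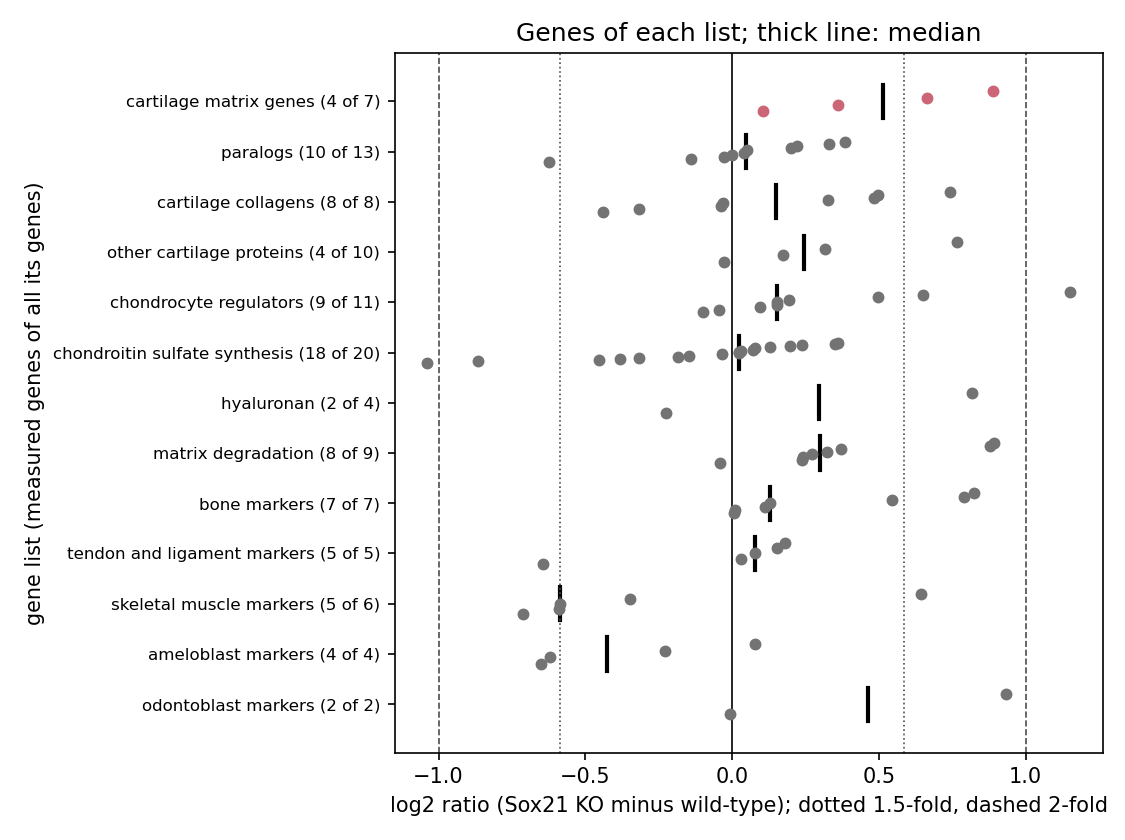
Log2 ratios (*Sox21* KO minus wild-type) of the measured genes of each list, 1 point per gene, with the median as a thick line, the cartilage matrix genes in red, and dotted and dashed lines at 1.5-fold and 2-fold. The median of the cartilage matrix genes was 0.51 from 4 of 7 genes, that of the cartilage collagens was 0.15 and that of the relatives (paralogs) was 0.05.

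Genes that regulate chondrocytes were measured in 9 of 11 cases, with 7 higher, 2 lower and a median of 0.15. *Sox9*, the transcription factor needed for chondrocyte formation and for *Acan* and *Col2a1* expression, had normalized signals of 2.02 and 2.25 over 10 spots and a log2 ratio of 0.15. *Ihh*, the hedgehog ligand of prehypertrophic chondrocytes, went from 0.235 to 0.523, a log2 ratio of 1.15 that became 0.61 under normexp, and *Pth1r*, the receptor of parathyroid hormone-related protein, which osteoblasts also express, had 0.65. *Pthlh*, encoding its ligand, had 0.19. The probes of *Runx3* disagreed, with 0.50 and -0.38, and *Sox6* and *Nkx3-2* were not well above background on either array.

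Aggrecan is sulfated through the chondroitin sulfate pathway, of which 18 of 20 genes were measured. Their median log2 ratio was 0.02, with 10 higher and 8 lower, and 0 were at least 1.5-fold higher. The 2 genes at least 1.5-fold lower, where 2.99% of all measured genes were, both act in sulfation. *Papss2*, which makes the sulfate donor, went from 30.3 to 16.6 in normalized signal, a log2 ratio of -0.87. *Chst3*, which adds sulfate to chondroitin, went from 1.34 to 0.652, a log2 ratio of -1.04. The sulfate transporter gene *Slc26a2* had -0.45 and the sulfotransferase gene *Chst11* had -0.32. In contrast, the sulfotransferase gene *Chst12* had 0.35, close to the 0.36 of the core protein gene *Acan*, and the precursor enzyme gene *Ugdh* had 0.24. Of the remaining genes of this group, *Papss1* had -0.38, *Chst13* had -0.04, which turned positive under the median shift, and *Bpnt2* had 0.02. The sulfation and precursor genes thus differed in both directions, with more of them lower than higher.

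For hyaluronan, to which aggrecan binds, the synthase gene *Has2* went from 0.491 to 0.866, a log2 ratio of 0.82 that became 0.54 under normexp, and the receptor gene *Cd44* had -0.22 at its brightest probe. *Has1* and *Has3* were not well above background on either array. Among the genes that break down cartilage matrix or inhibit this, 8 of 9 were measured, with 7 higher, 1 lower and a median of 0.30. The aggrecan-cleaving proteases had 0.24 for *Adamts4*, 0.24 for *Adamts5*, with -0.04 at its dimmer probe, -0.04 for *Adamts1*, which turned positive under the median shift, and 0.89 for *Adamts15*, which had 0.34 under normexp. *Mmp13*, a collagenase of hypertrophic cartilage and bone, had 0.88, and *Timp3*, an inhibitor of these proteases, had 0.37.

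Markers of other tissues around the tooth also differed between the arrays, and their part in the ratios of the cartilage matrix genes was not tested. Of 7 bone genes all were measured, with log2 ratios between 0.01 and 0.82 and a median of 0.13, and their summed normalized signal was 512 in wild-type and 592 in *Sox21* KO. *Spp1*, *Phex* and *Ibsp* had 0.82, 0.79 and 0.55, whereas *Sp7* and *Alpl* had 0.01 each, and these last signs turned under some scalings. The 5 tendon and ligament genes, which bear on *Comp*, had a median of 0.08 and sums of 5.59 and 5.88. Among them *Scx* had 0.15, *Tnmd* had 0.18 and *Fmod* had 0.08, and *Kera* had -0.64, which became -0.29 under normexp and was less than 1.5-fold lower under the median shift as well. Skeletal muscle genes were measured in 5 of 6 cases, with *Myod1* not well above background, and had a median of -0.59, with sums of 57.9 and 40.3. *Acta1*, *Tnnc2*, *Ckm* and *Myog* had ratios from -0.71 to -0.35, whereas the embryonic myosin gene *Myh3* had 0.64, and 0.59 at its dimmer probe. For the ameloblast genes the median was -0.43, with sums of 3067 and 2785. The odontoblast gene *Dmp1*, also expressed by osteocytes, had 0.93. *Dspp* had -0.01 at its brighter probe, which turned positive under the median shift and quantile normalization, and 0.28 at its dimmer probe. The sums over the cartilage collagens were 32.0 and 42.0, and those over the 4 measured cartilage matrix genes were 2.14 and 3.20.

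The promoter windows of these genes were searched for short motifs, as a description of the sequences only. RefSeq windows on GRCm38.p6, reaching from 250 bases before to 50 bases after the start site, were at hand for 6 of the genes, and *Comp* had no entry. GGGCGG, the GC box, was present on either strand in the windows of *Acan*, *Matn1*, *Matn3*, *Chad* and *Cytl1*, and in 35.7% of all 32851 windows. ACAAT, the core that Sox proteins recognise, was found in that of *Hapln1*, against 31.0% of all windows, and TATAAA, the TATA box, in that of *Chad*, against 13.6%. Hits of different motifs did not overlap, while the 3 GC boxes of *Matn3*, and those at -44 and -40 in *Acan*, overlap each other. Stretches of 30 bases with the motif in capitals are shown for the measured genes with a window, as an example of 1 hit each, on the plus strand, which is the strand of each gene.
Acan (GRCm38.p6, chr7:79053207-79053236): cgcgcaccattcCCGCCCacctacctcccc
Hapln1 (GRCm38.p6, chr13:89540386-89540415): tACAATtcatcccacagatcccgagtggca
Chad (GRCm38.p6, chr11:94565007-94565036): tcaaggctgcccTATAAAtgggccgggaga

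The *Acan* window, which holds 74.0% G and C, has 3 GC boxes, starting at positions -44, -40 and -7 from the start site. All lie on the opposite strand and so read as CCGCCC, and the one at -7 is shown because it overlaps no other hit. The TATA box of *Chad* starts at -28. The ACAAT of *Hapln1* starts at -249, at the far end of its window, which holds 54.3% G and C.

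**Figure D4:**
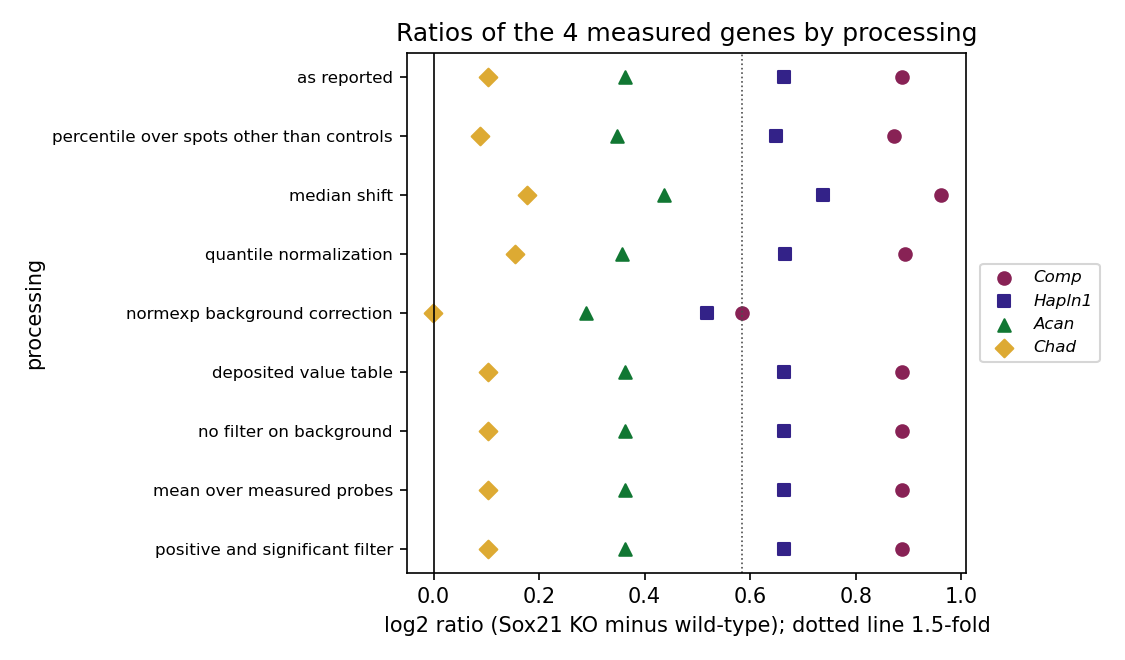
Log2 ratios (*Sox21* KO minus wild-type) of *Comp*, *Hapln1*, *Acan* and *Chad* as reported and under 8 other ways of processing, with a dotted line at 1.5-fold. The ratios moved by little except under the normexp background correction, where *Comp* had 0.58, *Hapln1* 0.52, and *Acan* 0.29.

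The count of 2 genes past 1.5-fold held under every alternative except the normexp background correction. There *Comp* lay just under the threshold, and *Chad* turned to just below 0. *Comp*, *Hapln1* and *Acan* stayed above 0 under each of the 8 alternatives, with ranges of 0.58 to 0.96, 0.52 to 0.74 and 0.29 to 0.44.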

How the data were processed

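The authors labelled total RNA with Cy3, hybridized it to SurePrint G3 Mouse GE arrays and deposited, from Agilent Feature Extraction 10.7.3.1, a background-subtracted signal intensity for each spot. The authors also deposited a ratio of each signal to 1 number per array, 268 and 276, near the 75th percentile. The processed signals were scaled by the percentile over all spots. After 267 outlier spots were left out, spots were averaged per probe, and per gene outside the 7 the brightest probe well above background on both arrays was used. RefSeq names (GRCm38.p6) were matched by accession, symbol or older symbol for 26300, 2044 and 355 probes. With 1 array per genotype no test was run. The number of arrays limits the precision. Every probe of the 7 genes is given, other genes were named from fixed lists, and members and lists were chosen with earlier results of these data known. Scaling, background correction, filter, probe choice and the deposited values were varied. Steps were tested on simulated data. The tools were R 4.3.3 with limma 3.58.1, and Python 3.11.15 with pandas 2.3.3 and numpy 2.4.6.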

Additional observations from a re-analysis of the deposited data

How the results depend on the processing

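The ratios of the 4 measured cartilage matrix genes and the medians of the other lists were recomputed under 8 alternatives. So were the counts of genes measured and past each fold. Of these alternatives, the filter by the software's weaker mark was chosen after seeing the data. Counts within the other lists and ratios of their genes were recomputed under the 5 scaling and background alternatives. Ranks, summed signals, the *Sox21* ratios and the median of 0.51 of the cartilage matrix genes were recomputed under none. The normexp background correction moved *Comp* to 0.58 and left 0 cartilage matrix genes at least 1.5-fold higher. Dropping the filter on background brought the number of cartilage matrix genes with a ratio from 4 to 7, with -0.17 for *Matn1*, -0.39 for *Matn3* and -0.35 for *Cytl1*, all dim on both arrays. Under the weaker mark 6 had a ratio, and 4 of these were higher, as *Matn3* and *Cytl1* joined with the same negative values. Over all genes, 441 were at least 1.5-fold higher and 194 were 2-fold apart. These counts became 172 and 86 under normexp, 1298 and 1203 without the filter, and 909 and 613 under the weaker mark. Genes 1.5-fold higher and lower numbered 441 and 412, and 604 and 298 under the median shift. At 2-fold the numbers were 102 and 92, and 128 and 68 under the median shift, and 508 and 695 without the filter. The median over all measured genes moved by 0.07 under the median shift and by -0.07, to -0.06, without the filter on background. The median of the other cartilage proteins went from 0.25 to 0.07 under normexp, and that of the hyaluronan genes from 0.30 to 0.53 under the weaker mark, 0.18 under normexp and 0.15 without the filter. The medians of the remaining lists, apart from the cartilage matrix genes, moved by less than 0.15, the median SD between spots of 1 probe. That of the cartilage collagens lay between 0.12 and 0.22. The median of 0.51 rests on the 4 measured cartilage matrix genes. Without the filter or under the weaker mark, genes with negative ratios would join it. No paired analysis was possible because each genotype has 1 array. Values for *Matn1*, *Matn3* and *Cytl1* are limited by their signal over background.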
